A study of Mus musculus with 54 samples.

Results

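The 40 genes described here take up, burn, make and store fatty acids. They were chosen by symbol from the 26264 entries in each of the testis and ovary count tables of a mouse study of drugs given in drinking water. By role they comprise 7 genes of uptake and activation (Cd36, Fabp3, Acsl1, Acsl3, Acsl4, Acsl5, Acsl6), 5 of the carnitine shuttle (Cpt1a, Cpt1b, Cpt1c, Cpt2, Slc25a20) and 15 of mitochondrial beta-oxidation (Acadvl, Acadl, Acadm, Acads, Hadha, Hadhb, Hadh, Echs1, Acaa2, Eci1, Eci2, Decr1, Etfa, Etfb, Etfdh). The others are 4 genes of synthesis and desaturation (Acaca, Fasn, Scd1, Scd2), 7 of droplet storage and lipolysis (Plin2, Plin3, Plin5, Dgat1, Dgat2, Pnpla2, Mgll) and 2 regulators (Ppara, Ppargc1a). All 40 had counts in each of the 54 libraries and passed the filter on low counts in every fit, so none was left out.

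A fatty acid that enters a cell is first joined to coenzyme A by an acyl-CoA synthetase. It is then either carried into the mitochondrion as a carnitine ester and shortened in repeated cycles of beta-oxidation, or esterified and kept in a lipid droplet, from which lipases release it again. In gonads such droplets supply steroid-making cells (Leydig cells of the testis, luteal cells of the ovary), and the Sertoli cells that nurse sperm are known to burn fatty acids taken from the germ cell remains they engulf.

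Messenger RNA was measured in adult testis and ovary, 27 libraries per tissue, in 9 groups of 3 libraries (A, B and C). The first generation (F1) comprised a control group, a dose 1 group and a dose 2 group. Dams drank the mixture during pregnancy from 8.5 days post-coitum, and their young went on drinking it up to sampling, at 10 weeks in males and 8 weeks in females. Dose 1 water held 11.3 ng/L ibuprofen, 90 ng/L 2-hydroxyibuprofen (a breakdown product of ibuprofen), 22.5 ng/L diclofenac and 2.25 ng/L ethinyl-estradiol, a synthetic oestrogen. Dose 2 water held 113, 225, 112 and 45 ng/L of the same compounds in that order, and F1 control water held 0.001% ethanol. The second generation (F2), labelled with no treatment of its own, had 5 groups with an exposed F1 parent (mother at dose 1, mother at dose 2, father at dose 1, father at dose 2, both parents at dose 2) and 1 group from control parents. No strain or genotype is given in the sources used here, and no age is given for the F2 libraries. In the cross codes the male was taken to be named before the female, an order that the tables leave unsaid. Each exposure group had 6 to 7 pregnant females, and the labels do not tie libraries A, B and C to litters, so a p-value here reflects only how far these samples lie apart.

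Totals were 31.8 to 46.4 M counts per library in testis and 35.6 to 102 M in ovary. Spermatid markers summed to 12612 to 24959 CPM (counts scaled to the library total) in testis libraries and 0.561 to 3.57 CPM in ovary libraries, and corpus luteum markers to 341 to 677 CPM in testis and 10527 to 25640 CPM in ovary. In ovary, oviduct markers reached 1239 and 429 CPM in F1 dose 2 libraries A and B and 226 CPM in F1 control library A, against 41.8 to 76.9 CPM in the other 24 libraries. Adipocyte markers reached 198 and 187 CPM in mother dose 1 ovary libraries B and C and 234 CPM in F1 control library C, against 87.4 to 134 CPM in the other 24. Below, levels are CPM, changes are log2 fold changes ± SE, and means carry the SD over 3 libraries unless another n is given. A gene is said to have risen or fallen only where the Benjamini-Hochberg adjusted p of edgeR's quasi-likelihood test, taken over all genes tested, was under 0.05.

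Testis and ovary drew on different members of the set. In unexposed animals (F1 control and F2 control parents, 6 libraries per tissue), 9 of the 40 genes were at least 2-fold higher in testis and 21 at least 2-fold higher in ovary at an adjusted p under 0.05. Of all 19176 genes tested, 37.1% met that rule in the testis direction and 35.0% in the ovary direction, so the ovary side was over-represented among the members and the testis side under-represented, a difference that was not itself tested. The remaining 10 members met neither rule. The median change of the 40 was -1.06, against -0.01 for all genes. Tissue goes together with sex and, in the F1, with age here, and these cannot be told apart.

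The testis side was led by enzymes of activation and storage. Acsl6, an acyl-CoA synthetase of brain and testis, had a lowest, median and highest level of 86.5, 92.3 and 100.1 CPM in testis and 0.235, 0.533 and 0.901 CPM in ovary (7.97 ± 0.25, adjusted p = 8.09e-13). Acsl1, the long-chain synthetase of fat and liver, had 786, 822 and 874 CPM in testis and 20.5, 23.9 and 28.4 CPM in ovary (5.66 ± 0.12, adjusted p = 1.26e-14). In GENCODE vM21, 1039 of its 10483 exon bases overlap Gm45244 on the other strand, so its counts are uncertain. Dgat2, which makes the last bond of a triglyceride, had 224, 249.5 and 273 CPM in testis and 6.46, 9.05 and 19.5 CPM in ovary (5.21 ± 0.25, adjusted p = 6.86e-11). None of these 3 genes came near to overlapping between the tissues. Pnpla2, the triglyceride lipase of droplets, was 5.47-fold higher in testis, Cpt1c 5.16-fold, the monoglyceride lipase Mgll 3.45-fold, the fatty acid binding protein Fabp3 2.96-fold and Dgat1 2.09-fold. Cpt1b, the muscle form of the enzyme that makes the carnitine ester, was 6.02-fold higher in testis but low in both tissues (1.57 ± 0.325 CPM in testis and 0.384 ± 0.182 CPM in ovary, n = 6 each). In GENCODE vM21, 2744 of its 3372 exon bases lie within exons of Gm44502 on the same strand, so its counts are uncertain.

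The ovary side held most of the beta-oxidation genes, but of the carnitine shuttle only Cpt1a. Of the 15 beta-oxidation genes, 13 were at least 2-fold higher in ovary, and the median change of the 15 was -1.95. The exceptions were the subunits of the trifunctional protein, Hadha (0.24 ± 0.08) and Hadhb (-0.38 ± 0.08). Among the 13, Acadvl averaged 25.0 ± 2.89 CPM in testis and 129.6 ± 21.6 CPM in ovary, Echs1 21.0 ± 1.27 CPM and 143 ± 28.0 CPM, and Acaa2 28.0 ± 1.73 CPM and 189 ± 46.2 CPM (n = 6 each). In GENCODE vM21, 1151 of the 2686 exon bases of Acadvl overlap Dvl2 on the other strand, so its counts are uncertain. Acads, the short-chain acyl-CoA dehydrogenase, had 8.81, 9.82 and 11.4 CPM in testis and 85.6, 102 and 126 CPM in ovary as lowest, median and highest (-2.78 ± 0.13, adjusted p = 5.12e-11), with no overlap. Acsl4, a synthetase that prefers arachidonic acid, had 18.2, 22.1 and 24.6 CPM in testis and 127, 228 and 388 CPM in ovary (-2.91 ± 0.23, adjusted p = 2.08e-08). Scd2, a desaturase that puts the double bond into stearic acid, had 169, 259.8 and 324 CPM in testis and 1676, 2139 and 2444 CPM in ovary (-2.52 ± 0.15, adjusted p = 7.83e-10). The ovary values of Acsl4 were spread over a wide range and still lay wholly above the testis values. Cpt1a, the liver form of the carnitine enzyme, was 4.65-fold higher in ovary, Fasn 2.42-fold, Scd1 2.78-fold, the droplet coat proteins Plin3 and Plin5 2.06-fold and 4.66-fold, and the nuclear receptor Ppara 2.09-fold. The shuttle genes Cpt2 (-0.01 ± 0.12) and Slc25a20 (-0.13 ± 0.08) met neither rule, and Cpt1b and Cpt1c were on the testis side.

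Per kilobase of exon, the highest members in unexposed testis were Fabp3 (171 CPM per kb), Pnpla2 (97.9), Dgat2 (80.8) and Acsl1 (78.8), while in ovary they were Scd2 (382), the thiolase Acaa2 (125), the electron carrier Etfb (89.8) and Fabp3 (85.5). Lengths came from GENCODE vM21, an annotation of another genome build than the counts. Scaling by library totals in place of TMM factors shifted the median of all genes by -0.56, gave 8 members higher in testis and 23 in ovary, and turned the sign of Cd36, Acsl3, Hadha and Acaca, none of which was past the 2-fold rule. Under that scaling Dgat1 was no longer past it, and Acsl5 and Plin2 became ovary-high. The share of all genes called under that scaling was not computed, so the counts of 8 and 23 have no background.

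**Figure D1:**
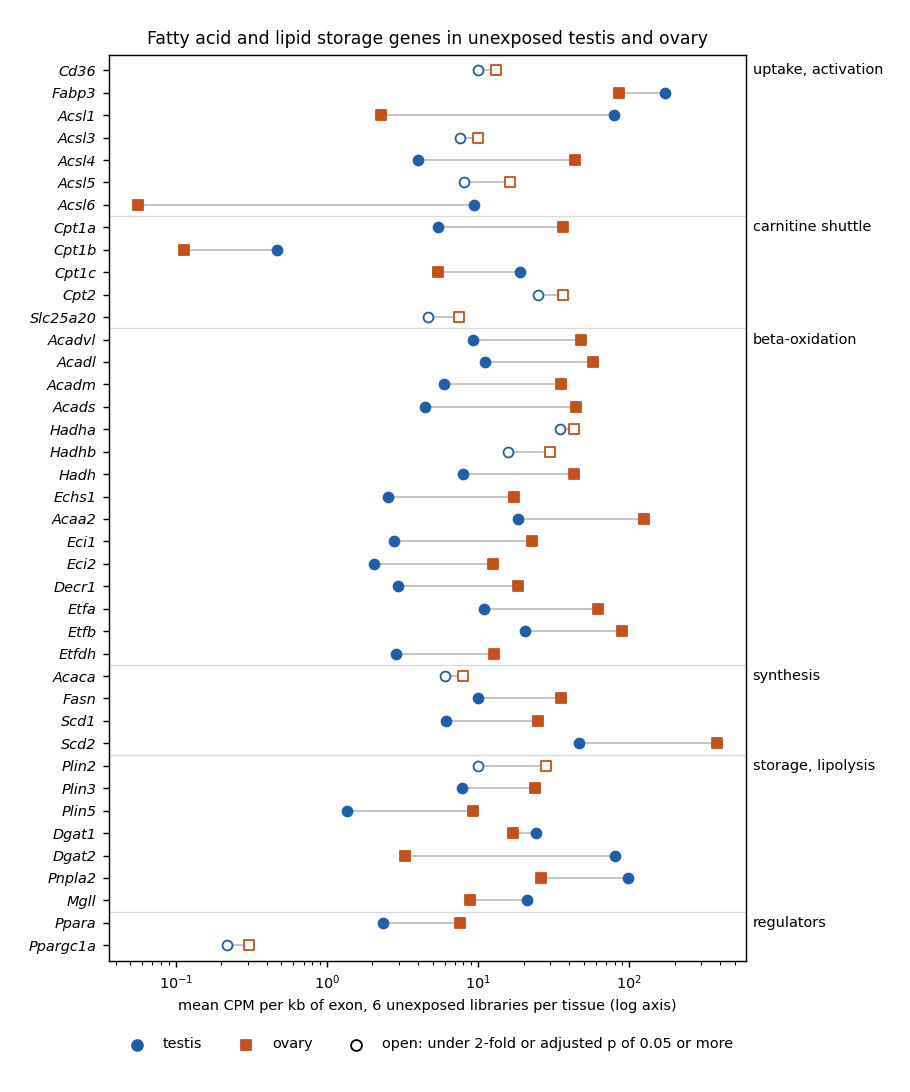
Level of each of the 40 genes in unexposed testis and unexposed ovary, as mean CPM per kilobase on a log axis (n = 6 libraries per tissue), grouped by role. Filled symbols mark genes at least 2-fold apart at an adjusted p under 0.05 in the fit with TMM factors, open symbols the 10 others. Of the 15 beta-oxidation genes, 13 passed that rule as higher in ovary. The plotted levels are scaled by library totals, and on that scale the exceptions Hadha and Hadhb also lie higher in ovary.

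Acsl6, the member with the largest testis excess, has 3 RefSeq windows at different starts. Only the window printed here, chosen for having the most matches of the motifs searched, held any match. The 250 bases before its start (RefSeq, GRCm38.p6, chr11:54303574-54303823, plus strand) hold TGACCT, the reverse complement of the nuclear receptor half-site AGGTCA, at -189 and again within TGACCTTGA at -167, which is the reverse complement of the extended half-site TCAAGGTCA. Capitals mark these matches.
Acsl6: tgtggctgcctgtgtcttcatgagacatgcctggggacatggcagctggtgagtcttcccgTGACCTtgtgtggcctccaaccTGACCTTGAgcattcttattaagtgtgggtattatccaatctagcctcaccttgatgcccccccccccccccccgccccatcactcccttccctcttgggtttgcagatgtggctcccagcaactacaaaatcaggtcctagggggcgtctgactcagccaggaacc
RefSeq windows of 300 bases were found for 33 of the 40 genes (38 windows). AGGTCA on either strand stood in 10 of them, against 16.3% of all 32851 windows. Its 9 genes were Acadm, Acadvl, Acsl6, Cd36, Cpt1a, Cpt1c, Echs1, Plin2 and Plin5. TCAAGGTCA, which overlaps the half-site, was in 1 member window (0.423% of all windows), and TCACNCCAC, the sterol element, in 1, that of Acsl1 (1.24%). The direct repeat of AGGTCA with 1 base between its copies, the element bound by PPAR (0.0396%), and TGACGTCA (1.79%) were in none. A match describes letters only.

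Across the 27 libraries of a tissue the members differed widely in how steady they were. In testis Acsl1 ranged over 786 to 889 CPM, Dgat2 over 224 to 273, Acsl6 over 81.4 to 106 and Plin2, the general droplet coat protein, over 31.6 to 47.6. The desaturase Scd1 spanned 11.2 to 42.6 CPM and the coactivator Ppargc1a 0.227 to 6.60 CPM. In ovary wide ranges were seen for Plin5 (2.36 to 62.2 CPM), Acsl4 (89.9 to 726 CPM), Fabp3 (18.1 to 113 CPM), Dgat2 (6.03 to 31.9 CPM) and Scd1 (46.7 to 224 CPM). The most abundant member of the ovary, Scd2, ranged over 1415 to 2827 CPM there.

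**Figure D2:**
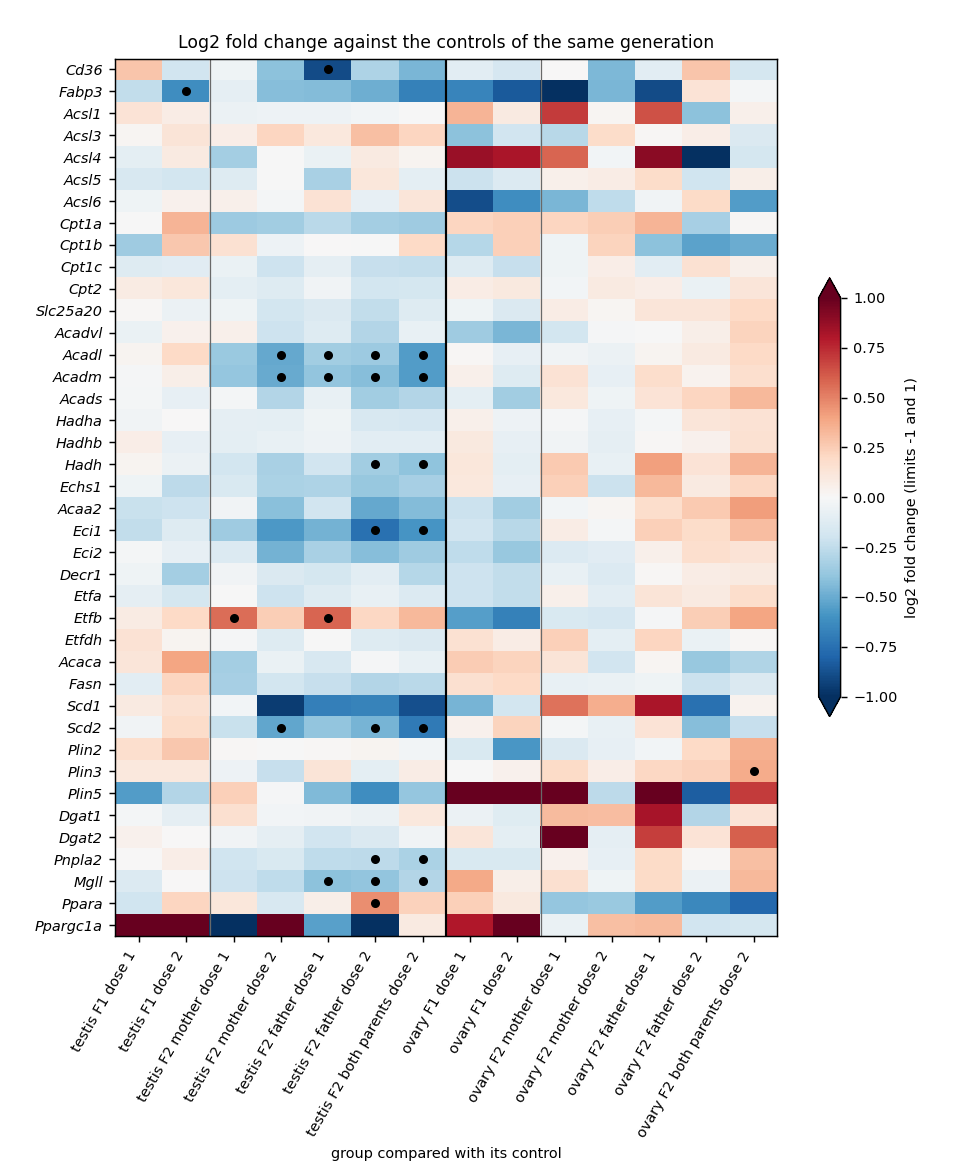
Log2 fold change of the 40 genes (rows, by role) in the 14 comparisons with control libraries (columns, testis then ovary), on a colour scale limited at -1 and 1. Black dots mark an adjusted p under 0.05; they lie in the testis columns of the F2 crosses apart from Fabp3 in F1 dose 2 testis and Plin3 in the ovary of both parents dose 2.

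Direct exposure was examined first, in the F1 testis. At dose 1, 0 of the 40 members passed the test, where 0.0317% of 18923 genes did. At an unadjusted p under 0.05, 2 members were higher (Acsl1 0.14 ± 0.05, Ppargc1a 2.01 ± 0.74) and 3 lower (Fabp3 -0.25 ± 0.11, Acaa2 -0.22 ± 0.08, Plin5 -0.56 ± 0.24). Of all genes, 3.88% met that rule in the higher and 4.67% in the lower direction. DESeq2 called 0 members and 139 genes. At dose 2 only Fabp3, the cytosolic carrier of fatty acids, fell among the members. It had 94.1, 101 and 122 CPM at dose 2 in libraries A, B and C, against 150.4, 152 and 174 CPM in controls. The dose 2 libraries all lay below the controls. The means were 106 ± 14.3 CPM at dose 2 and 159 ± 13.4 CPM in controls (-0.62 ± 0.11, adjusted p = 0.0286). At dose 1 it had 136, 127 and 137 CPM, also below each control library, with a smaller change that did not pass the test (adjusted p = 0.565). Of all genes, 1.64% fell and 0.576% rose at dose 2, so 1 of 40 is near the background. At an unadjusted p under 0.05, 5 members were higher, where 10.4% of genes were. DESeq2 called 4 members and 1890 genes, both directions together. The call was lost, leaving 0, without control library A, control library C, dose 2 library A or dose 2 library B. Fabp3 also has a pseudogene, Fabp3-ps1, and its exons overlap those of Gm10570 and Zcchc17 on the other strand, so its counts are uncertain.

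The other F1 dose 2 values in testis stayed under the threshold. The genes of synthesis had a median change of 0.20, with Acaca, the first enzyme of fatty acid synthesis, at 0.40 ± 0.12 (adjusted p = 0.0999). Cpt1a had 46.0, 45.8 and 41.7 CPM at dose 2, against 35.3, 35.9 and 31.9 CPM in controls (0.34 ± 0.09, adjusted p = 0.0680), values that did not overlap. The median of the 15 beta-oxidation genes was -0.08 and that of all 40 was 0.03. Some marker sums moved with dose 2. The 9 spermatid markers summed to 15281 to 16979 CPM at dose 2, against 18290.5 to 24959 CPM in controls, with 1 called lower, and the 11 Leydig cell markers to 995 to 1304 CPM, against 1311 to 1366 CPM, with 1 called lower. Over all genes 1.64% were called lower at dose 2. The part of these cells in the Fabp3 result was not tested. A bulk library cannot tell fewer cells of a type from less RNA per cell.

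Exposure of a parent was examined in the F2 testis, where the same control parents served all 5 crosses, so that the crosses are not independent of one another. Of the 40 members, 8 fell in at least 1 cross, 2 rose in at least 1, and 30 passed the test in none. Of all 19241 genes, 5.48% fell in at least 1 cross and 5.31% rose in at least 1. Those that fell were Acadl and Acadm (4 crosses each), Scd2 and Mgll (3 each), Hadh, Eci1 and Pnpla2 (2 each) and Cd36 (1). Etfb rose in 2 crosses and Ppara in 1. Each of these calls was between groups that did not overlap. The share of all called genes without overlap was not computed, so this has no background and adds nothing to the calls.

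With the mother at dose 1, 1 member rose and 0 fell (backgrounds of 0.400% and 0.416% of 19241 genes). At an unadjusted p under 0.05, 10 were lower in that cross, where 9.89% of genes were. DESeq2 called 3 members and 645 genes in all. With the mother at dose 2, 0 rose and 3 fell (0.800% and 0.899%); 1 was higher at an unadjusted p under 0.05 (9.16% of genes). The father at dose 1 gave 1 risen and 4 fallen (2.22% and 1.75%), and the father at dose 2 gave 1 risen and 7 fallen (2.94% and 2.39%). With both parents at dose 2, 0 rose and 7 fell (1.78% and 2.81%); 2 were higher at an unadjusted p under 0.05 (10.7%). DESeq2 called 7 members with the mother at dose 2 (947 genes in all) and 12 with both parents at dose 2 (1564 genes in all). In the last 4 crosses the fallen members made up a larger share of the set than fallen genes did of all genes. The median change of the 40 was -0.06, -0.17, -0.17, -0.24 and -0.17 in that order of crosses, against -0.00, -0.00, -0.01, -0.00 and 0.01 for all genes.

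These counts depended on single libraries. The mother dose 1 count was 0 without control parents A or C or without any 1 of its own libraries, and 3 without control parents B. That of mother dose 2 was 0 without control parents C or its own library A and 11 without control parents B. For father dose 1 it was 1 without control parents A or its own library C, 2 without control parents C and 3 without its own library B. For father dose 2 it was 1 without control parents A, 0 without control parents C or its own library A or B, 4 without its own library C and 19 without control parents B. For both parents dose 2 it was 3 without control parents A or C or its own library B and 15 without control parents B. Leaving out control parents B thus raised the count in 4 of the crosses. Most calls of single genes were lost in some of the 6 fits that each left out 1 library. With the mother at dose 1, Etfb lost its call in 5 of the 6, and with the mother at dose 2, Acadl lost it in 2, Acadm in 3 and Scd2 in 5. In the father dose 1 cross Acadl and Acadm lost it in 6, Etfb in 3, Mgll in 2 and Cd36 in 0. In the father dose 2 cross Acadl, Hadh, Scd2 and Pnpla2 lost it in 5, Acadm, Mgll and Ppara in 4 and Eci1 in 3. With both parents at dose 2, Eci1 and Mgll lost it in 4, Hadh and Pnpla2 in 3, and Acadl, Acadm and Scd2 in 0.

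A pair of acyl-CoA dehydrogenases, enzymes that open each round of beta-oxidation, were called lower in the most crosses. Acadl, the long-chain enzyme, had 19.5, 21.6 and 20.0 CPM with the mother at dose 1, 15.6, 20.6 and 19.0 CPM with the mother at dose 2, 19.7, 20.8 and 22.0 CPM with the father at dose 1, 20.2, 20.8 and 21.2 CPM with the father at dose 2 and 17.8, 19.4 and 15.6 CPM with both parents at dose 2, against 23.7, 28.0 and 26.7 CPM from control parents. Every cross library lay below every control parents library. The changes were -0.51 ± 0.10 with the mother at dose 2 (adjusted p = 0.0142), -0.35 ± 0.10 with the father at dose 1 (0.0498), -0.36 ± 0.10 with the father at dose 2 (0.0412) and -0.56 ± 0.10 with both parents at dose 2 (0.00491). With the mother at dose 1 it was -0.37 ± 0.10 and did not pass (0.0776).

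Acadm, the medium-chain enzyme, had 14.8, 19.7 and 18.6 CPM with the mother at dose 2, 16.9, 21.4 and 19.9 CPM with the father at dose 1, 18.4, 19.0 and 19.5 CPM with the father at dose 2 and 17.4, 18.02 and 15.2 CPM with both parents at dose 2, against 22.5, 28.0 and 24.6 CPM from control parents. Both parents at dose 2 gave the lowest mean of these crosses. The changes were -0.50 ± 0.11 (0.0216), -0.39 ± 0.11 (0.0454), -0.43 ± 0.11 (0.0315) and -0.56 ± 0.11 (0.00899) in that order. With both parents at dose 2 the calls of Acadl and Acadm remained after any 1 of the 6 libraries was left out (highest adjusted p 0.0315 and 0.0397). With the father at dose 1 both were lost whichever library was left out (lowest adjusted p 0.0641 and 0.0589).

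The promoters of Acadl and Acadm are shown because these genes were called in the same crosses. Each is the 250 bases before the start in RefSeq, GRCm38.p6, on the minus strand, at chr1:66863310-66863559 for Acadl and chr3:153944644-153944893 for Acadm. Capitals mark TGACCT, the reverse complement of AGGTCA, which was found at -249 of Acadm and not in the Acadl window.
Acadl: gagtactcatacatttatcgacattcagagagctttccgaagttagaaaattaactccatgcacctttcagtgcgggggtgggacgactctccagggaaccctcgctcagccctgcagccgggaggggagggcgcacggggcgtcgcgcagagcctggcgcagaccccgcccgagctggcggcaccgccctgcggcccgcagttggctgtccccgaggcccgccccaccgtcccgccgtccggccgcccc
Acadm: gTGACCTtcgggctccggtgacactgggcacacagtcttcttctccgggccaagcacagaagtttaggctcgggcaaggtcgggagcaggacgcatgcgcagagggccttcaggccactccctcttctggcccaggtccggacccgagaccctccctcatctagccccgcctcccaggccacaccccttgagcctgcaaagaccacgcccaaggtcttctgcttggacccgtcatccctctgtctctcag
The windows have 68% and 64% G and C, in that order.

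Further along the chain, Hadh, the short-chain hydroxyacyl-CoA dehydrogenase, had 32.5, 36.5 and 34.3 CPM with the father at dose 2 and 33.0, 30.3 and 33.4 CPM with both parents at dose 2, against 46.0, 38.9 and 44.0 CPM from control parents (-0.35 ± 0.09, adjusted p = 0.0339, and -0.41 ± 0.09, adjusted p = 0.0163). Eci1, an isomerase needed for unsaturated chains, had 4.01, 3.42 and 4.19 CPM with the father at dose 2 and 3.77, 4.13 and 4.74 CPM with both parents at dose 2, against 5.92, 6.67 and 6.52 CPM from control parents (-0.74 ± 0.15, adjusted p = 0.0124, and -0.59 ± 0.15, adjusted p = 0.0306). All cross libraries of both genes were below the control parents. The median of the 15 beta-oxidation genes was -0.09 with the mother at dose 1, -0.29 with the mother at dose 2, -0.18 with the father at dose 1, -0.35 with the father at dose 2 and -0.30 with both parents at dose 2. Their summed level was 621, 620.4 and 627 CPM with the father at dose 2 and 604, 605 and 607 CPM with both parents at dose 2, against 692, 694 and 718 CPM from control parents. In F1 control testis the sum was 642, 667 and 604 CPM, a range within which all these cross libraries lay.

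Etfb, a subunit of the flavoprotein that takes electrons from the dehydrogenases, went the other way. It had 27.1, 31.3 and 28.2 CPM with the mother at dose 1 and 28.2, 28.8 and 32.1 CPM with the father at dose 1, against 18.3, 24.0 and 16.2 CPM from control parents (0.56 ± 0.12, adjusted p = 0.0399, and 0.58 ± 0.12, adjusted p = 0.0119). The control parents were low for this gene beside the F1 controls, which had 25.5, 31.7 and 25.8 CPM. In GENCODE vM21 the exons of Etfb share 617 bases with Gm45233 on the same strand, so its counts are uncertain. Its partner Etfa had 18.7, 20.6 and 18.7 CPM with the mother at dose 1 and 17.8, 17.4 and 18.5 CPM with the father at dose 1, against 18.4, 21.0 and 18.3 CPM from control parents.

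**Figure D3:**
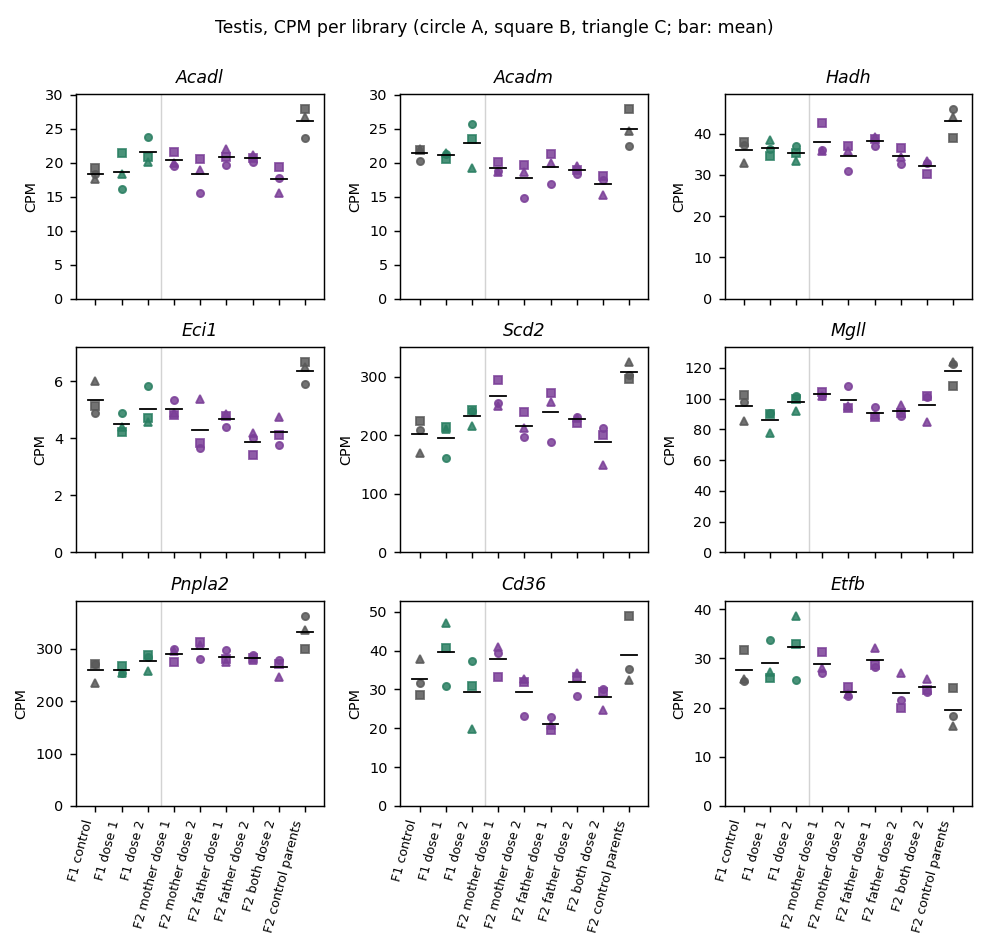
CPM of 9 members in every testis library, by group (circle A, square B, triangle C; the bar is the group mean), with the F1 groups at the left and the F2 crosses before control parents at the right. For Acadl the control parents lie at 23.7 to 28.0 CPM, above every cross and above every F1 control library (17.6 to 19.2 CPM).

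Among the genes of synthesis, Scd2 fell in 3 crosses. It had 196, 239 and 212 CPM with the mother at dose 2, 231, 221 and 229.8 CPM with the father at dose 2 and 212, 201 and 149.9 CPM with both parents at dose 2, against 303, 295 and 324 CPM from control parents. All 9 cross libraries were below all 3 controls. The changes were -0.52 ± 0.12 (0.0390), -0.46 ± 0.12 (0.0382) and -0.71 ± 0.12 (0.00506), the last of which remained after any 1 library was left out. Its close relative Scd1, whose reads may in part be shared with it, had 18.6, 24.3 and 18.9 CPM with the mother at dose 2 and 29.1, 24.2 and 11.2 CPM with both parents at dose 2, against 38.2, 38.0 and 42.6 CPM from control parents, and just missed the threshold (-0.95 ± 0.24, adjusted p = 0.0618, and -0.88 ± 0.24, adjusted p = 0.0502). Fasn, the fatty acid synthase, was at -0.27 ± 0.11 and Acaca at -0.07 ± 0.16 with both parents at dose 2, neither past the threshold. The median of the 4 genes was -0.28, -0.35, -0.31, -0.38 and -0.49 over the crosses, in the order in which they were listed at the start.

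Of the lipases, Mgll fell in the 3 crosses with an exposed father and Pnpla2 in 2 of them. Mgll had 94.3, 88.0 and 89.6 CPM with the father at dose 1, 89.0, 90.5 and 95.7 CPM with the father at dose 2 and 101, 101 and 84.5 CPM with both parents at dose 2, against 122, 108 and 124 CPM from control parents (-0.41 ± 0.08, -0.39 ± 0.08 and -0.30 ± 0.08, adjusted p = 0.00715, 0.0124 and 0.0378). Pnpla2 had 288, 282 and 278 CPM with the father at dose 2 and 279, 272 and 246 CPM with both parents at dose 2, against 363, 299 and 335 CPM from control parents (-0.26 ± 0.07 and -0.32 ± 0.07, adjusted p = 0.0466 and 0.0221). Pnpla2 had 297, 281 and 274 CPM with the father at dose 1 and did not pass (-0.25 ± 0.07, adjusted p = 0.0611). With the mother at dose 2, where Mgll was at -0.26 ± 0.08 and Pnpla2 at -0.15 ± 0.07, neither passed the test; a difference between crosses was not tested. The droplet proteins Plin2, Plin3 and Plin5 and the acyltransferases Dgat1 and Dgat2 passed in no cross. Plin5 had the largest of these changes with the father at dose 2 (-0.62 ± 0.26, adjusted p = 0.146).

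Of the uptake genes, Cd36, the membrane receptor that lets long-chain fatty acids in, fell with the father at dose 1. It had 23.0, 19.6 and 21.0 CPM there, against 35.1, 48.9 and 32.4 CPM from control parents. The 3 libraries of this cross were together and well below the controls, and the call remained after any 1 library was left out (-0.89 ± 0.15, adjusted p = 0.00240; without 1 library at most 0.0187). With the father at dose 2 it had 28.3, 33.2 and 34.2 CPM and did not pass (-0.31 ± 0.14, adjusted p = 0.202). Fabp3 had 62.3, 70.2 and 96.4 CPM with both parents at dose 2, against 122, 131 and 117 CPM from control parents (-0.68 ± 0.23, adjusted p = 0.105). The 5 acyl-CoA synthetases passed in no cross, and the carnitine shuttle had no call either. Cpt1a was at -0.36, -0.35, -0.27, -0.34 and -0.36 over the crosses in the order above, none past the threshold.

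Of the regulators, Ppara, the fatty acid receptor that switches on oxidation genes in liver, rose with the father at dose 2. It had 15.3, 12.0 and 10.5 CPM there, against 8.89, 8.93 and 9.09 CPM from control parents (0.46 ± 0.13, adjusted p = 0.0465). Library A of that cross was the highest of all testis libraries for Ppara, and the cross lay wholly above the controls. Ppargc1a was low and uneven. Father dose 2 had 0.446, 0.232 and 0.444 CPM and mother dose 2 2.65, 6.42 and 6.60 CPM, against 2.39, 3.52 and 1.68 CPM from control parents, and neither change passed (adjusted p = 0.0667 and 0.423).

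The control parents themselves differed from the F1 controls in this set, which bears on every cross. Of the 40 members, 10 were higher and 1 lower in F2 control parents than in F1 control testis, where 6.14% of 19467 genes were higher and 8.39% lower. Scd1 had 38.2, 38.0 and 42.6 CPM in control parents offspring, against 22.2, 23.5 and 15.9 CPM in F1 controls (0.93 ± 0.22, adjusted p = 0.00951). The F1 controls had 209, 224 and 169 CPM of Scd2, 272, 270.5 and 235 CPM of Pnpla2 and 98.02, 103 and 85.5 CPM of Mgll, each below the control parents values given above. Scd2 was at 0.60 ± 0.12 (0.00491), Acadl at 0.49 ± 0.10 (0.00404), Cpt1a at 0.47 ± 0.10 (0.00646), Pnpla2 at 0.34 ± 0.07 (0.00473) and Mgll at 0.29 ± 0.08 (0.0215). Cpt2, the inner-membrane partner of Cpt1, was at 0.28 ± 0.07 (0.00931), Fasn at 0.32 ± 0.11 (0.0494) and Hadha at 0.16 ± 0.05 (0.0302). Cpt1a averaged 48.1 ± 2.00 CPM in control parents offspring and 34.3 ± 2.17 CPM in F1 controls, Cpt2 65.7 ± 2.32 CPM and 53.5 ± 2.34 CPM, Hadha 322 ± 12.8 CPM and 284 ± 16.1 CPM, and Fasn 122 ± 19.6 CPM and 96.5 ± 9.80 CPM, in the same order of groups. Ppargc1a had 2.39, 3.52 and 1.68 CPM in control parents offspring, against 0.315, 0.227 and 0.474 CPM in F1 controls (2.84 ± 0.82, adjusted p = 0.0269). Etfb was the one that fell (-0.53 ± 0.15, adjusted p = 0.0192). Groups overlapped only for Fasn among these 11, and the share of all called genes without overlap was not computed here either. Cpt1a, Cpt2, Acadl, Scd2 and Pnpla2 kept the call whichever library was left out, Scd1 lost it in 1 of the 6 fits, Hadha and Mgll in 3, Etfb in 4, and Fasn and Ppargc1a in 5. The count was 5 without F1 control C, 6 without control parents A and 7 without control parents C. Spermatid markers summed to 14527 to 15938 CPM in control parents offspring, against 18290.5 to 24959 CPM in F1 controls, with 1 of the 9 called higher and 2 lower, and their part was not tested. The 2 control groups differ in generation. Ethanol water is stated for F1 controls, while neither ethanol nor age at sampling is given for F2 control parents. The parts of these cannot be told apart.

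Set against the F1 controls, a comparison added after the values were seen, the crosses looked different. The called members then numbered 0 with the mother at dose 1 (6 at an unadjusted p under 0.05, which 11.2% of genes met), 3 with the mother at dose 2, 5 with the father at dose 1, 5 with the father at dose 2 and 1 with both parents at dose 2. The shares of all genes called higher and lower were 0.0822% and 0.241% with the mother at dose 1, 1.93% and 4.45% with the mother at dose 2, 2.83% and 6.43% with the father at dose 1, 6.82% and 9.65% with the father at dose 2, and 0.801% and 1.24% with both parents at dose 2. In each cross the called members were near these shares of all genes. Acadl was then at 0.13, -0.02, 0.14, 0.13 and -0.06 over the crosses in the order above. Acadm was at -0.17, -0.29, -0.18, -0.21 and -0.34 in the same order, and neither gene had a call. Scd2 and Pnpla2 with the father at dose 2 and Mgll with both parents at dose 2 changed sign. Calls that held against both control groups were Cd36 with the father at dose 1 (-0.66 ± 0.19, adjusted p = 0.0313 against F1 controls), Eci1 with the father at dose 2 (-0.51 ± 0.15, 0.0223) and Ppara with the father at dose 2 (0.43 ± 0.13, 0.0244). Against control parents the adjusted p reached 0.0832 for Eci1 and 0.238 for Ppara when 1 library was left out. Both comparisons use the same cross libraries and are not independent. Fabp3 was called against F1 controls with the mother at dose 2 (-0.82 ± 0.20, 0.0252), the father at dose 1 (-0.81 ± 0.20, 0.0181), the father at dose 2 (-0.87 ± 0.20, 0.00964) and both parents at dose 2 (-1.05 ± 0.20, 0.0157). The other calls against F1 controls were Etfa (-0.35 ± 0.08) and Ppargc1a (3.88 ± 0.82) with the mother at dose 2, Acsl5 (-0.42 ± 0.12), Cpt2 (0.24 ± 0.07) and Etfa (-0.27 ± 0.08) with the father at dose 1, and Acaa2 (-0.45 ± 0.14) and Plin5 (-0.81 ± 0.26) with the father at dose 2. Etfa averaged 16.7 ± 1.95 CPM with the mother at dose 2 and 17.9 ± 0.589 CPM with the father at dose 1, against 21.0 ± 0.781 CPM in F1 controls. Acsl5 averaged 30.8 ± 4.56 CPM with the father at dose 1, against 40.1 ± 2.76 CPM in F1 controls, and Cpt2 65.1 ± 2.73 CPM, against 53.5 ± 2.34 CPM. Acaa2 averaged 20.6 ± 2.30 CPM with the father at dose 2, against 27.3 ± 1.91 CPM in F1 controls, and Plin5 1.78 ± 0.385 CPM, against 3.005 ± 0.568 CPM.

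Markers of steroid-making and immune cells moved with these results. The 11 Leydig cell markers, none of them at 0, summed to 1384 to 1579.8 CPM with the mother at dose 1, 945 to 1292 CPM with the mother at dose 2, 1143 to 1332 CPM with the father at dose 1, 1203 to 1281 CPM with the father at dose 2 and 1009.6 to 1097 CPM with both parents at dose 2, against 1624 to 1775 CPM from control parents and 1311 to 1366 CPM in F1 controls. Of the 11, 1, 5, 5, 4 and 6 were called lower than in control parents in that order, and 4 were called higher in control parents than in F1 controls. The 11 macrophage markers, also none at 0, summed to 106 to 114, 83.4 to 91.2, 85.6 to 90.9, 92.7 to 109 and 83.6 to 89.6 CPM in the crosses, against 119 to 123 CPM from control parents. Of these, 1, 3, 4, 2 and 4 were called lower. Over all genes, 0.416%, 0.899%, 1.75%, 2.39% and 2.81% were called lower in the crosses. Between the control groups 6.14% were called higher in control parents. The 9 spermatid markers had 0 calls in each cross and at most 2 in either direction at an unadjusted p under 0.05, and the Sertoli list 0, 0, 0, 2 and 2 of 11 lower. Sertoli markers summed to 816, 818 and 847 CPM with the father at dose 2 and 819, 812 and 694 CPM with both parents at dose 2. Control parents offspring had 1114, 859 and 1100 CPM and F1 controls 853, 883 and 704 CPM. The Sertoli sums of the other crosses overlapped those of control parents. The part of these cells in the changes of the fatty acid genes was not tested.

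**Figure D4:**
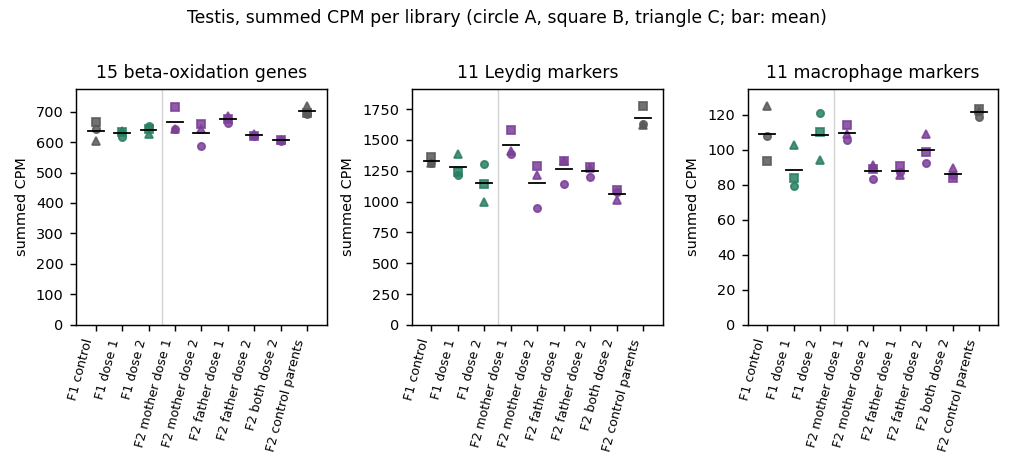
Summed CPM per testis library of the 15 beta-oxidation genes, 11 Leydig cell markers and 11 macrophage markers, by group (circle A, square B, triangle C; the bar is the group mean). Both parents dose 2 libraries lie lowest or near it in the beta-oxidation sum (604 to 607 CPM) and in the Leydig sum (1010 to 1097 CPM), against 692 to 718 CPM and 1624 to 1775 CPM from control parents. The F1 controls lie at 604 to 667 CPM in the beta-oxidation sum and 1311 to 1366 CPM in the Leydig sum.

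The rest of the pathway was read from a list of 122 further genes. In the F1 testis 0 of 115 tested passed at dose 1 (3 higher and 5 lower at an unadjusted p under 0.05). At that unadjusted p, 3.88% of all genes were higher and 4.67% lower. At dose 2 the triglyceride enzyme gene Mogat1 (-2.17 ± 0.47) and the elongase partner Hacd2 (-0.35 ± 0.08) fell while the glucose-sensing factor Mlxipl rose (0.59 ± 0.13). Over all genes 1.64% fell and 0.576% rose at dose 2. In the F2 testis, of 117 tested, 1 rose and 0 fell with the mother at dose 1, 1 rose and 3 fell with the mother at dose 2, 3 rose and 5 fell with the father at dose 1, 2 rose and 6 fell with the father at dose 2, and 1 rose and 19 fell with both parents at dose 2. Over all genes 0.400%, 0.800%, 2.22%, 2.94% and 1.78% rose in these crosses, and 0.416%, 0.899%, 1.75%, 2.39% and 2.81% fell. Klb, the co-receptor for FGF21, was the listed gene that rose in every cross. It averaged 12.5 ± 4.07 CPM with the mother at dose 1 and 8.86 ± 0.180 CPM with both parents at dose 2, against 1.24 ± 0.418 CPM from control parents (3.32 ± 0.32 and 2.85 ± 0.32). The control parents were low for Klb, at 1.24 ± 0.418 CPM, against 7.82 ± 7.96 CPM in F1 controls (-2.70 ± 0.88, adjusted p = 0.0473).

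The desaturases that make polyunsaturated fatty acids, Fads1 and Fads2, were among the lower genes. Fads1 averaged 91.3 ± 9.36 CPM with the mother at dose 2 and 91.4 ± 14.5 CPM with both parents at dose 2, against 154 ± 6.88 CPM from control parents (-0.76 ± 0.11, adjusted p = 0.00196, and -0.75 ± 0.11, adjusted p = 0.00107). Both desaturases were higher in control parents than in F1 controls. Fads1 averaged 154 ± 6.88 CPM in control parents offspring and 104 ± 19.3 CPM in F1 controls (0.55 ± 0.12, adjusted p = 0.00728), and Fads2 258 ± 9.34 CPM and 188 ± 15.1 CPM (0.44 ± 0.11, adjusted p = 0.00988). With the father at dose 1 the thioesterase Acot13 (-1.29 ± 0.18) and the carnitine carrier Slc22a5 (-0.36 ± 0.07) fell, and with the father at dose 2 the uncoupling protein Ucp2 (-0.51 ± 0.12). Between the control groups, 21 of 118 were higher and 4 lower in F2 control parents than in F1 controls (6.14% and 8.39% of all genes). Among them were Ucp2 (0.61 ± 0.11), Me1 (0.33 ± 0.05), Bscl2 (0.30 ± 0.06) and Mogat1 (-2.84 ± 0.44). Slc22a5 was also higher in control parents than in F1 controls (0.32 ± 0.08, adjusted p = 0.0131). Of the wider list, 32 of 116 were testis-high and 55 ovary-high in unexposed animals (37.1% and 35.0% of all genes). The testis side was led by the sperm fatty acid binding protein Fabp9 (log2 difference 14.27) and the testis acyl-CoA synthetase Acsbg2 (11.77).

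In the ovary, the members gave almost no calls. In the F1, 0 of 40 passed at dose 1 (background 0% of 17168 genes) and 0 at dose 2 (0%). In the F2, 0 passed with the mother at dose 1 (0% of 17454), the mother at dose 2 (0%), the father at dose 1 (0%) and the father at dose 2 (0.00573%), and 0 between the control groups (0% of 17754). At an unadjusted p under 0.05 there were 3 higher and 2 lower at F1 dose 1 (2.76% and 2.50% of all genes), and 3 and 4 at dose 2 (5.85% and 6.10%). With the mother at dose 1 there were 3 and 1 (5.00% and 4.20%), and with the mother at dose 2 there were 0 and 0 (2.95% and 2.88%). The father at dose 1 gave 5 and 1 (5.78% and 3.86%), the father at dose 2 gave 3 and 4 (7.77% and 8.07%), and the control groups 1 and 1 (6.02% and 7.94%). DESeq2 called 0, 1, 1, 0, 0, 0 and 0 members in these 7 comparisons. Over all genes it called 78, 353, 121, 13, 82, 340 and 116 in the same order.

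The exception was Plin3, a coat protein of young droplets, with both parents at dose 2. It had 114, 110.0 and 111 CPM there, against 94.6, 93.5 and 73.7 CPM from control parents. The cross libraries lay together above all 3 controls, of which library C was the lowest of all ovary libraries. The means were 112 ± 1.83 CPM and 87.3 ± 11.8 CPM (0.37 ± 0.08, adjusted p = 0.0474), against backgrounds of 0.298% higher and 0.390% lower. At an unadjusted p under 0.05, 2 members were lower (12.4% of genes), and DESeq2 called 3 members and 1791 genes in all. The call was lost in 5 of the 6 fits that left out 1 library. The count of called members was 3 without library B of the cross and 0 without any 1 of the other 5. Corpus luteum markers summed to 16270.0 to 17935 CPM in that cross, against 13014 to 14501 CPM from control parents, with no overlap, and 0 of the 9 called by edgeR (1 higher and 0 lower at an unadjusted p under 0.05). Granulosa cell markers summed to 3393 to 4982 CPM, against 4472 to 6216 CPM, and theca cell markers to 510.1 to 1271 CPM, against 947 to 1843 CPM, and these groups overlapped. The part of these cells in the Plin3 value and in the values that follow was not tested. All 15 beta-oxidation genes had a positive change in that cross, where 50.9% of all genes did, but none passed the test. They had a median of 0.20 and a highest value of 0.42, and the 7 storage genes a median of 0.35. Acads had 118, 110.0 and 130.4 CPM, against 102, 102 and 85.6 CPM from control parents (0.32 ± 0.09, adjusted p = 0.0683), and Ppara 26.8, 21.6 and 16.0 CPM, against 35.1, 43.2 and 33.3 CPM (-0.78 ± 0.22, adjusted p = 0.0646). Neither passed.

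Several ovary members had larger changes than Plin3 and did not pass. Acsl4 had 405, 399 and 416 CPM at F1 dose 1, against 168, 285 and 215 CPM in controls (0.86 ± 0.29, adjusted p = 0.726). At F1 dose 2 it had 281, 325 and 584 CPM, whose lowest library lay below the highest control. Fabp3 had 43.6, 37.5 and 32.4 CPM at dose 1 and 35.9, 29.1 and 36.5 CPM at dose 2, against 56.4, 70.4 and 50.9 CPM in controls, with no overlap at either dose (-0.66 ± 0.18, adjusted p = 0.726, and -0.84 ± 0.18, adjusted p = 0.407). Plin5 ranged within 1 group over 3.49, 46.7 and 4.15 CPM in control parents offspring and 25.6, 28.7 and 7.82 CPM in F1 controls. Dgat2 had 8.31, 31.9 and 30.2 CPM with the mother at dose 1, against 8.85, 9.24 and 6.46 CPM from control parents (1.53 ± 0.37, adjusted p = 0.302), with groups that overlapped, and its high libraries B and C are those in which adipocyte markers summed to 198 and 187 CPM, against 101, 112 and 101 CPM in control parents offspring. The part of fat tissue in these values was not tested.

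**Figure D5:**
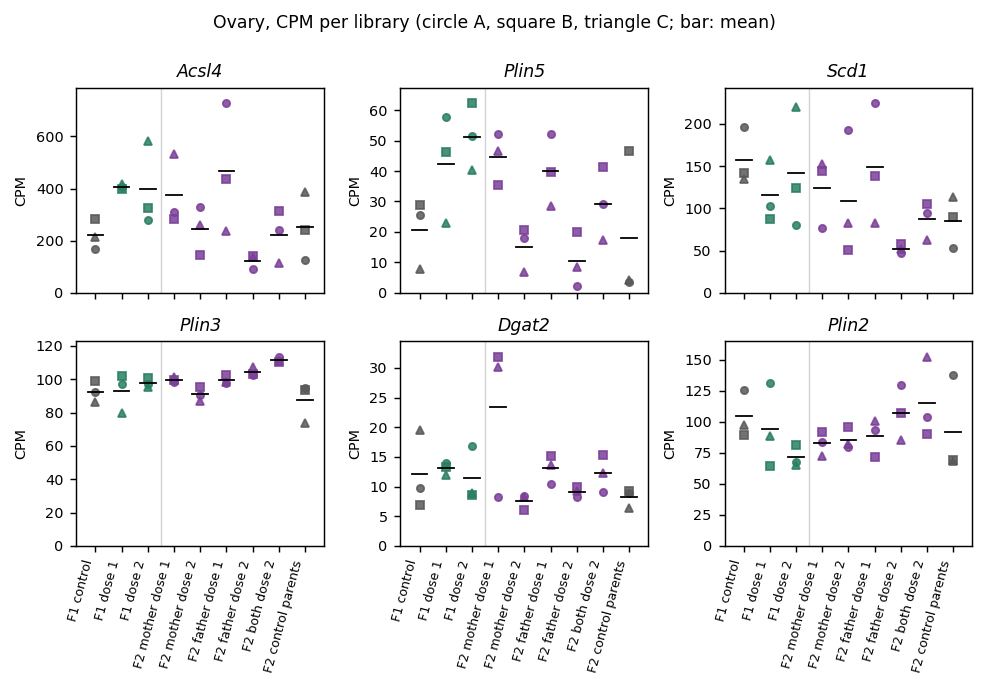
CPM of 6 members in every ovary library, by group (circle A, square B, triangle C; the bar is the group mean). Plin3 with both parents at dose 2 lies at 110.0 to 114 CPM, against 73.7 to 94.6 CPM from control parents, while Acsl4 and Plin5 spread over most of their range within single groups.

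Whether the change differed between the tissues was tested in a joint fit. With both parents at dose 2, 10 of the 40 members changed differently in testis and in ovary, where 4.59% of 20661 genes did, and with the father at dose 2, 7 did (2.93%). In the other 5 contrasts 0 did, with backgrounds of 0.00983% and 0.0147% of 20351 genes at F1 dose 1 and dose 2, and 0.111%, 0.131% and 0.373% with the mother at dose 1, the mother at dose 2 and the father at dose 1. At an unadjusted p under 0.05 the members in these 5 contrasts numbered 4, 6, 10, 9 and 18. The share of all genes at that unadjusted threshold was not computed, so these counts have no background beside them. In the crosses with both parents and with the father at dose 2, the share of called members was above that of all genes. With both parents at dose 2, Acadl was at -0.56 in testis and 0.20 in ovary, a difference of -0.78 ± 0.13 (adjusted p = 0.00204). Acadm was at -0.56 in testis and 0.16 in ovary (-0.73 ± 0.14, 0.00352), Hadh at -0.41 in testis and 0.34 in ovary (-0.76 ± 0.16, 0.00913) and Eci1 at -0.59 in testis and 0.31 in ovary (-0.91 ± 0.18, 0.00641). These 4 remained past the threshold after any 1 of the 12 libraries was left out, as did Eci1 with the father at dose 2 (-0.96 ± 0.19, 0.0145). Ppara ran the other way, at 0.23 in testis and -0.78 in ovary with both parents at dose 2 (1.00 ± 0.26, 0.0264). The count with the father at dose 2 was 1 without testis control parents A or C, testis father dose 2 A or B, ovary control parents C or ovary father dose 2 B or C, and 4 without ovary control parents A. With both parents at dose 2 it was 5 without testis control parents A or C, 6 without ovary control parents C and 4 without ovary both parents dose 2 C. Against F1 controls the testis values of Acadl were near 0, as given above, and the tissue difference was not tested with those controls.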

How the data were processed

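The authors deposited 1 table of raw read counts per gene for each tissue, 26264 entries by 27 libraries. Per the submitters' processing notes reads were handled with TopHat2 2.1.1, Bowtie2 2.4.5 and featureCounts 2.0.3, among other tools (SAMtools 1.13, bcl2fastq 2.20, FastQC 1.19, DESeq2 1.32.0), with build mm39. TRIZOL extraction and stranded poly(A) ligation libraries with 100 nt reads are stated per the labels' protocols. For the counting step, strand setting and annotation are not given in the sources, and genes that overlap others, Acsl1, Acsl5 and Acadvl among them, are therefore uncertain. Another 133 entries have a symbol but no gene ID (0.319 to 0.377% of testis counts, 0.0591 to 0.0861% of ovary counts) and stayed in totals and tests. Intervals and tests cover these libraries only; replicates differed by more than counting noise (lowest chi-square per gene 3.24).

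Counts were fitted in R 4.3.3 with edgeR 4.0.16 (robust quasi-likelihood, TMM factors, expression filter with a minimum count of 10) and Benjamini-Hochberg adjustment over all genes tested, threshold 0.05. Each tissue had 1 fit for its 9 F1 libraries, 1 for its 18 F2 libraries and 1 over all 27, which served the comparison of control groups. In testis the fit over all 27 also served the crosses set against F1 controls, so their SE come from another fit than those against control parents. The unexposed testis and ovary libraries had a fit of their own with generation as covariate. The joint test of tissue differences used 1 fit per generation over both tissues. CPM were computed from the library totals. The steps were tested on simulated data. The alternatives were DESeq2 1.42.0, RLE factors, no filter, the replicate letter as a block, only the 6 libraries compared, and each library left out in turn; F1 controls in place of control parents were added after the data were seen. The letters were taken as pairs where libraries of the same letter deviated together, which held for ovary F1 dose 1 alone (correlations 0.188, 0.201 and 0.35). The labels do not say that letters pair animals, and the main fits used no block. The members, gene lists and tests were chosen with earlier results of these data known. Values in every library, or per group, are given for each member called in a comparison with control or between generations, and for the 3 most testis-high and 3 most ovary-high members; of the further pathway genes, up to 4 with the smallest adjusted p per comparison. A gene that this rule selects is not reported here. Promoters are RefSeq windows of GRCm38.p6 and exon lengths and overlaps come from GENCODE vM21, neither the build of the counts, so these served for sequence and length only.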

Additional observations from a re-analysis of the deposited data

Results flagged for a closer look

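The change of 17 member values differed between testis and ovary by the joint edgeR test, and each is given here as the testis minus ovary difference of the log2 fold change. With the father at dose 2 these were -0.49 ± 0.13 for Acadl, -0.50 ± 0.14 for Acadm, -0.60 ± 0.15 for Acads, -0.81 ± 0.22 for Acaa2, -0.96 ± 0.19 for Eci1 and -0.64 ± 0.15 for Eci2 (adjusted p = 0.0415, 0.0429, 0.0332, 0.0395, 0.0145 and 0.0267). The 6 genes belong to beta-oxidation and had a change below 0 in testis and above 0 in ovary. Ppara differed by 1.07 ± 0.26 (0.0287), the only one of the 7 with a positive difference.

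With both parents at dose 2 the differences were -0.78 ± 0.13 for Acadl, -0.73 ± 0.14 for Acadm, -0.64 ± 0.15 for Acads, -0.76 ± 0.16 for Hadh, -0.87 ± 0.21 for Acaa2, -0.91 ± 0.18 for Eci1 and -0.51 ± 0.15 for Eci2. The adjusted p of Acads, Acaa2 and Eci2 were 0.0179, 0.0205 and 0.0494. The lipases differed by -0.64 ± 0.14 for Pnpla2 (0.0132) and -0.64 ± 0.17 for Mgll (0.0296), and Ppara by 1.00 ± 0.26. Several of the ovary changes on their own were small, Eci2 being at 0.14 and Acadm at 0.16 in that cross, and none of these 10 genes passed the test in ovary alone. Leydig cell, macrophage and Sertoli cell marker sums were lower in the same testis groups than in control parents. With both parents at dose 2 corpus luteum markers summed to 16270.0 to 17935 CPM in ovary, against 13014 to 14501 CPM from control parents. Their part in these differences was not tested.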

How the results depend on the processing

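The counts of called members were the values that moved most. Of the alternative values for single genes, 422 kept direction and call, 240 kept direction and lost the call, and 7 reversed. Many of these values come from fits that left out 1 library and so share most of their data. All 7 reversals came with F1 controls in place of control parents. Under that setting only Cd36 with the father at dose 1, and Eci1 and Ppara with the father at dose 2, kept their calls. Of the counts and medians, 338 alternative values stayed within their bounds and 80 moved. RLE factors moved none of these counts or medians. DESeq2 called more members in testis: 4 at F1 dose 2, 3 with the mother at dose 1, 7 with the mother at dose 2, 10 with the father at dose 1, 16 with the father at dose 2 and 12 with both parents at dose 2. Over all genes DESeq2 called 1890, 645, 947, 1264, 1879 and 1564 in these testis comparisons. In ovary it called 1 member at F1 dose 2, 1 with the mother at dose 1 and 3 with both parents at dose 2. Over all genes it called 353, 121 and 1791 there. Those are more genes than edgeR called, so the edgeR shares are no background for the DESeq2 counts. Without the low-count filter the ovary count with both parents at dose 2 was 0. With only the 6 libraries compared, the count was 4 at testis F1 dose 2, 0 with the mother at dose 1, 1 with both parents at dose 2 in testis and 0 in ovary. With the replicate block the count was 5 in testis with the mother at dose 2 and 0 in ovary with both parents at dose 2. The block changed no other count by more than 1.5 times. In ovary F1 dose 1, where libraries of the same letter deviated together, it left 0. With F1 controls in place of control parents the testis counts became 0 with the mother at dose 1, 5 with the father at dose 2 and 1 with both parents at dose 2, and the member medians 0.0681, -0.0564, 0.0380, -0.0627 and 0.0014 over the crosses. Reversed under that setting were Scd2 with the mother at dose 2 (0.0790), Acadl with the father at dose 1 (0.14), Acadl (0.13), Scd2 (0.14) and Pnpla2 (0.0873) with the father at dose 2, and Pnpla2 (0.0403) and Mgll (0.0086) with both parents at dose 2. With each library left out in turn, the testis counts ran from 0 to 1 at F1 dose 2, 0 to 3 with the mother at dose 1, 0 to 11 with the mother at dose 2, 1 to 5 with the father at dose 1, 0 to 19 with the father at dose 2, 3 to 15 with both parents at dose 2 and 5 to 12 between control groups. The ovary counts ran from 0 to 1 with the mother at dose 1 and 0 to 3 with both parents at dose 2, and the tissue differences from 1 to 9 with the father at dose 2 and 4 to 11 with both parents at dose 2. Medians ran from -0.12 to -0.0511 with the mother at dose 1 and -0.25 to -0.16 with the father at dose 2 in testis, and in ovary from -0.0764 to 0.0859 at F1 dose 1, -0.19 to -0.0048 at F1 dose 2 and -0.17 to 0.0329 between control groups. The cause of these shifts was not tested. Counting error is largest, relative to the level, for the members with the fewest counts, such as Acsl6 in ovary and Cpt1b and Ppargc1a in testis.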
